A study of Homo sapiens with 40 samples.

Results

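The genes described here are 32 listed targets of the tumour suppressor p53, followed in 786-0 cells, a human line of clear cell renal cell carcinoma. They were listed by name, with earlier results of these data known. All 32 symbols were found among the 60664 genes of the deposited count table. Each of the 32 also passed the filter on low counts that left 22527 genes for testing. By their best known roles, 6 act in growth arrest, 14 in apoptosis, 4 in DNA repair or nucleotide supply, 4 feed back on p53 itself, and 4 act in metabolism, secreted signals or survival.

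p53 is a transcription factor that cells keep scarce through MDM2, a ubiquitin ligase whose own gene is a p53 target. Kinases that sense broken or stalled DNA, ATM and ATR among them, free p53 from MDM2, and p53 then binds pairs of short half-sites and raises the genes beside them. CDKN1A, which blocks cyclin-dependent kinases, is the classic arrest target, while BAX, BBC3 (PUMA) and PMAIP1 (NOXA) act on the mitochondrial branch of apoptosis and FAS and TNFRSF10B are death receptors.

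RNA-seq libraries were made from 786-0 cells in which SETD2 was intact (SETD2 WT) or, per the labels, knocked out (SETD2 KO); SETD2 trimethylates lysine 36 of histone H3. Each line was sampled untreated at day 0 (control) and after 5, 16 and 26 days with 100 nM DAC (decitabine, a cytidine analogue that is built into DNA and traps DNA methyltransferases), 10 nM BMN (BMN673, or talazoparib, which inhibits PARP enzymes and traps them on DNA), or both drugs (DAC+BMN). That makes 20 groups of 2 libraries, 40 in all. There is 1 line of each genotype, and the labels do not say whether it is a clone or whether replicates were separate cultures, so p-values measure only the spread between these libraries, which may be technical. No untreated cells were sampled after day 0. In every comparison with control, treatment and time in culture therefore cannot be told apart, whereas DAC+BMN was compared with each single drug on the same day.

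To show what a p53 site looks like in these genes, promoter windows from RefSeq (GRCh38.p14, from 250 bases before to 50 bases after each annotated start) were searched on both strands for the p53 half-site. There were 39 windows for 26 of the 32 members; FBXO22, GADD45A, PHLDA3, RRM2B, TNFRSF10B and TP53INP1 had no window and were not searched. An exact half-site lay in 7 of the 39 windows (17.95%) and in 6.63% of all 35114 RefSeq windows. A pair of half-sites with at most 3 mismatches and a spacer of at most 13 bases lay in 12 of the 39 (30.77%) and in 12.78% of all windows. The 2 MDM2 windows that count overlap and share a single site. The pairs below belong to members whose values carry the results that follow. Capitals mark the half-sites, and small letters mark a spacer and 4 bases of flank, or fewer where the window ends.
PURPL: cccaGGGCTTGTCTGGGCATGCCCacag
DDB2: gtttGAACAAGCCCtGGGCATGTTTggcg
FAS: tcctGGACAAGCCCTGACAAGCCAagcc
MDM2: agctGGTCAAGTTCAGACACGTTCcgaa
GDF15: gcacAGCCATGCCCGGGCAAGAACtc
The PURPL pair (chr5:27472165-27472184, plus strand) had 0 mismatches and began 127 bases before the annotated start, in a window with 0 CpG dinucleotides. The DDB2 pair (chr11:47214979-47214999, plus strand) also had 0 mismatches, with a spacer of 1 base, and began 5 bases after the start. The FAS pair (chr10:88991309-88991328, plus strand) and the MDM2 pair (chr12:68808923-68808942, plus strand) had 2 mismatches each. The GDF15 pair (chr19:18386186-18386205, plus strand) had 3 mismatches and began 28 bases after the start. The CDKN1A window held no such pair, which says only that these letters are not in that window. A match describes the sequence; no binding was measured here.

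Totals ran from 17833960 to 22631101 counts per library. Per kilobase of summed exon length, the untreated WT levels of the members spanned from 80.3 CPM per kb for PLK2, 28.4 for CDKN1A and 26.3 for CCNG1 down to 0.0961 for PURPL and 0.0259 for SPATA18. Replicates of the WT control differed most, with a median absolute difference of 0.26 on the log2 scale over the 32 members, against 0.05 to 0.21 in the other 19 groups. Levels below are CPM, counts scaled to library size with TMM factors, given for replicate 1 and then replicate 2 of a group. Differences are log2 values from edgeR's quasi-likelihood test ± SE, with p adjusted by Benjamini-Hochberg over all 22527 genes, and a gene is said to have risen or fallen only where this adjusted p was below 0.05. SETD2 transcript stood at 149 and 130 CPM in the WT control and at 141 and 113 in the KO control (log2 difference -0.13 ± 0.073, adjusted p = 0.2), so its level did not separate the lines. The summed level of 8 markers of renal epithelium and clear cell carcinoma was 4220 to 8160 CPM over the libraries. VIM alone gave 3940 of 5300 CPM in the WT control and 4170 of 6300 in the KO control. The summed level of 10 markers of blood and other cell types, EPCAM among them, was 0.879 to 26.9 CPM. This sum was higher in DAC+BMN at day 5 (9.74 in WT, 16.2 in KO) than in the controls (1.51 and 7.6). EPCAM, an adhesion gene of most epithelia and so no marker of blood, made up most of the sum in these 4 groups. HBB stood at 0 throughout, and the part of these markers in the results was not tested. In bulk RNA, a change in the number of responding cells and a change in RNA per cell cannot be told apart.

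Untreated KO cells already differed from untreated WT cells in these genes. At day 0, 18 of the 32 members were higher in KO and 5 lower, where 13.4% of all tested genes were higher and 13.9% lower, and the median log2 difference over the members was 0.50. Apoptosis genes made up 11 of the 18, arrest genes 4 and repair genes 3. CDKN1A (ENSG00000124762, chr6:36676460-36687337 of GRCh38) read 77.6 and 92.3 CPM in WT and 116 and 124 in KO (log2 difference 0.50 ± 0.085, adjusted p = 2.1e-05), with no overlap between lines. POLH, a DNA polymerase that copies past damaged bases, was 0.64 ± 0.07 higher in KO. The count of members lower in KO was near the share of all genes. The genes lower in KO were TP53I3 (-1.02 ± 0.31), TP53INP1 (-0.84 ± 0.14), GDF15 (-0.60 ± 0.2), PPM1D (-0.38 ± 0.1) and PLK2 (-0.25 ± 0.053). MDM2, with 94.9 and 78.8 CPM in WT and 89.9 and 89.2 in KO, did not pass (0.04 ± 0.097, adjusted p = 0.82). Without 1 library some of these calls were lost: the GDF15 difference was not called without WT control replicate 2 (-0.17, adjusted p = 0.68) or KO control replicate 1 (-0.46, adjusted p = 0.23), nor was that of TP53I3 without either of these (-0.90 and -0.81, adjusted p = 0.079 and 0.15), that of PPM1D without the first (-0.30, adjusted p = 0.07), or that of BBC3 without WT control replicate 1 (0.45, adjusted p = 0.11) or KO control replicate 2 (0.60, adjusted p = 0.058). Those of BAX, PHLDA3, CYFIP2 and SPATA18, all higher in KO, were also lost without 1 of the control libraries.

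The response was largest at day 5 of DAC+BMN. In WT cells 23 members rose over control and 1 fell (all genes 21.2% higher, 18.2% lower), with a median of 0.85. In KO cells 24 rose and 1 fell (all genes 27.1% higher, 22.2% lower), with a median of 0.93. The median of all tested genes was 0.02 and 0.08 in the same comparisons. DAC+BMN at day 5 was also the group of highest mean for 20 of 32 members in WT (62.5%, against 13.1% of tested genes) and for 22 in KO (68.8%, against 17.8%). Both libraries of that group lay above all 18 other libraries of their line for 19 members in WT and 20 in KO, against 5.42% and 8.88% of tested genes.

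**Figure D1:**
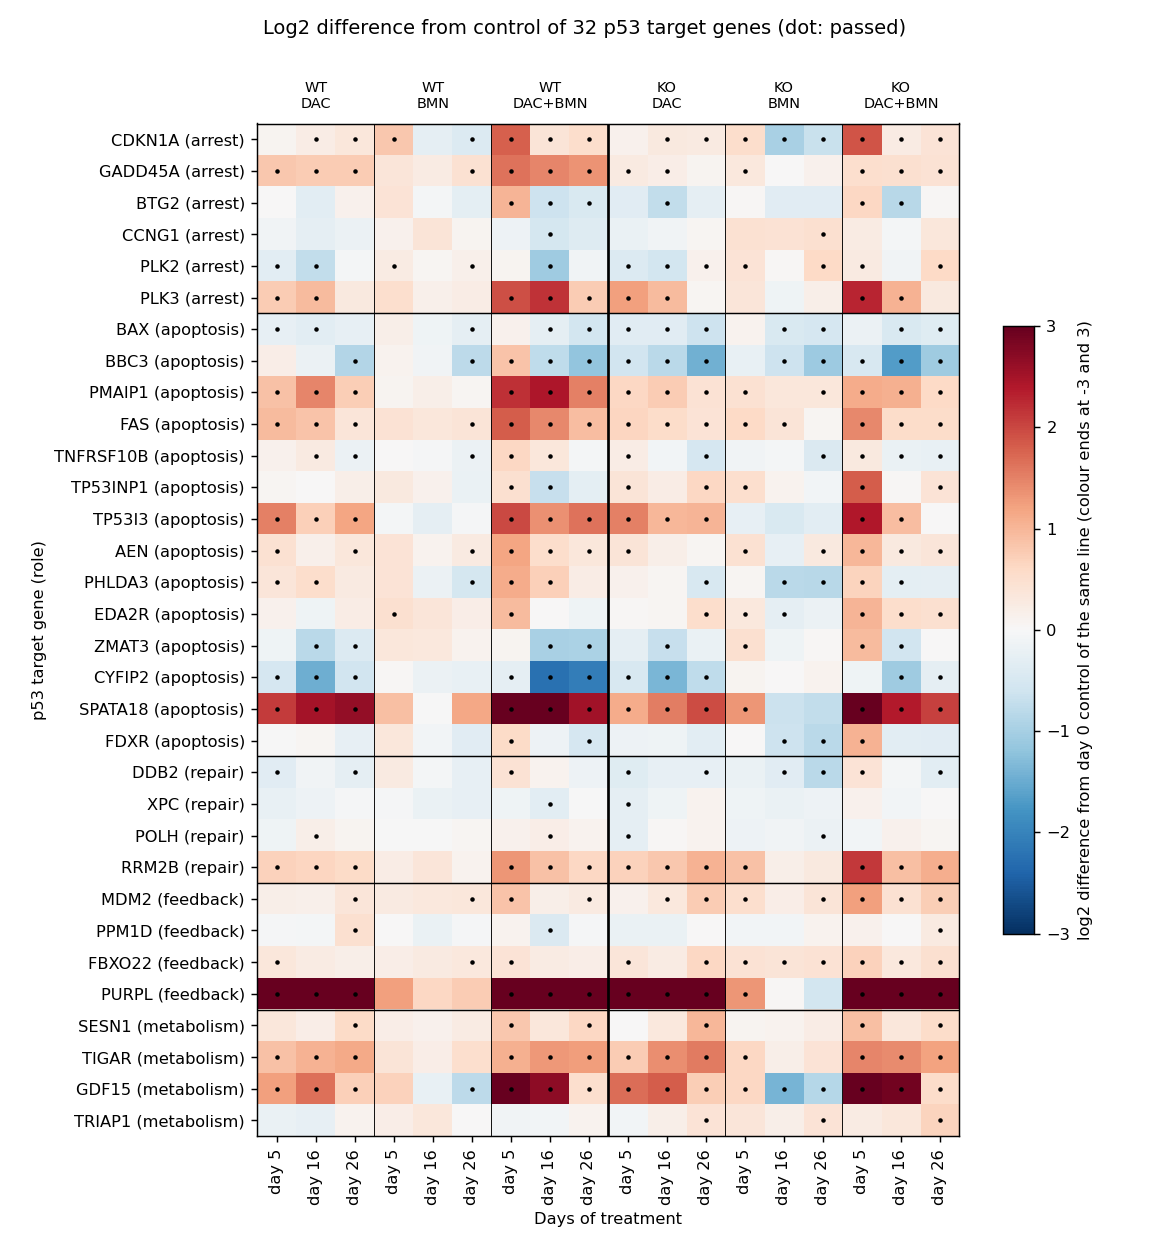
Log2 difference from the control of the same line for each of the 32 p53 targets (rows, grouped by role) in each treatment and day (columns), WT on the left and KO on the right, with dots marking an adjusted p below 0.05. The DAC+BMN day 5 columns hold 23 rises in WT and 24 in KO, and the BMN day 16 column of WT holds 0 called members.

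Among the arrest genes, CDKN1A rose from 77.6 and 92.3 CPM to 276 and 309 in WT and from 116 and 124 to 428 and 462 in KO. All 4 treated libraries lay far above their controls, and the rises were 3.45-fold (log2 1.79 ± 0.086, adjusted p = 3.6e-18) and 3.71-fold (1.89 ± 0.085, adjusted p = 5.6e-19). PLK3, a stress-activated polo-like kinase, rose by 1.94 in WT and 2.29 in KO, and BTG2, an antiproliferative cofactor of mRNA deadenylation, by 1.03 and 0.62. GADD45A, a stress sensor of cell cycle arrest and repair, went from 21.5 and 25.5 to 79.4 and 67.2 CPM in WT but only from 52.5 and 51.4 to 74.9 and 72 in KO (log2 1.64 and 0.50). The treated levels of the lines overlapped and the control levels did not. CCNG1, which recruits a phosphatase to MDM2, passed in neither line, and PLK2, another stress-induced polo-like kinase, rose in KO (0.28) and did not pass in WT.

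Of the 14 apoptosis genes, 11 rose and 1 fell in each line. PMAIP1, a BH3-only protein that neutralises MCL1, went from 10.6 and 12.9 CPM to 55.9 and 51.3 in WT (2.19 ± 0.13) and from 17.5 and 20.3 to 42.6 and 39.7 in KO (1.12). FAS went from 11.6 and 10 to 38.5 and 37.8 CPM in WT (1.81 ± 0.12) and from 28.3 and 29 to 78.5 and 77.2 in KO (1.44). For both genes every treated library exceeded every control library of its line. TNFRSF10B, the other death receptor, rose less (0.62 and 0.29). TP53I3, a quinone oxidoreductase tied to oxidative stress, rose by 1.99 and 2.41, AEN, an apoptosis-enhancing nuclease, by 1.18 and 0.99, and EDA2R, a receptor of the TNF receptor family, by 0.95 and 1.01. PHLDA3, a repressor of AKT signalling, rose by 1.12 and 0.67, TP53INP1 by 0.48 and 1.81 and FDXR by 0.57 and 1.04, while ZMAT3 rose in KO (0.96) and did not pass in WT (0.09). SPATA18, a mediator of mitochondrial quality control, was near the detection limit in the WT control (1 and 4 counts) and reached 60 and 52 counts in WT and 185 and 190 counts in KO, where the control held 9 and 21 (log2 4.46 ± 0.51 in WT and 3.66 ± 0.33 in KO).

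The pro-apoptotic genes BBC3 and BAX did not rise in both lines. BBC3 went from 8.11 and 13.9 CPM to 23.6 and 16 in WT (0.85 ± 0.18, adjusted p = 0.00034) and from 16.6 and 21.4 to 14.7 and 12.8 in KO (-0.47 ± 0.18, adjusted p = 0.033). The WT groups did not overlap, nor did the KO groups, and the directions were opposite. The WT call was lost without WT control replicate 1 (0.46, adjusted p = 0.069) or without DAC+BMN replicate 1 (0.51, adjusted p = 0.072). The KO call was lost without KO control replicate 2 (-0.32, adjusted p = 0.28) or DAC+BMN replicate 2 (-0.42, adjusted p = 0.15). BAX, the pore-forming effector at the mitochondrion, read 56 and 73.9 CPM in the WT control against 70.5 and 72.5 after treatment, and 78.5 and 88.3 against 74.4 and 72.5 in KO; it passed in neither line (0.14, adjusted p = 0.26, and -0.18, adjusted p = 0.11). CYFIP2, a regulator of the actin-nucleating WAVE complex, was the single member that fell in WT (-0.26, adjusted p = 0.048), a call that was kept in 3 of 9 other settings. The small WT rises of TP53INP1 (0.48), FDXR (0.57) and FBXO22 (0.40) were each lost when 1 of the WT control libraries was left out, TP53INP1 (0.29) and FBXO22 (0.31) without replicate 2 and FDXR (0.28) without replicate 1.

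In the repair group RRM2B, the p53-induced subunit of ribonucleotide reductase, went from 33.8 and 28 CPM to 76.5 and 77.5 in WT (1.32) and from 47.9 and 50 to 217 and 207 in KO (2.11). DDB2, which recognises ultraviolet damage and carries the exact pair printed above, rose by 0.43 and 0.41. XPC, its partner in nucleotide excision repair, and POLH did not pass in either line. Among the feedback genes, MDM2 rose from 94.9 and 78.8 CPM to 160 and 152 in WT (0.85, adjusted p = 7.1e-09) and from 89.9 and 89.2 to 209 and 208 in KO (1.22). FBXO22, a ubiquitin ligase subunit, rose by 0.40 and 0.70, and PPM1D, the WIP1 phosphatase that removes activating phosphates from p53, passed in neither line.

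PURPL rose most in both lines, followed by GDF15 and SPATA18, whose estimates in WT overlapped within their SE. PURPL (ENSG00000250337, chr5:27217714-27496994), a long noncoding RNA named for its effect on p53 levels, went from 0.403 and 0.673 CPM to 26.2 and 28.1 in WT (50.1-fold, log2 5.65 ± 0.24, adjusted p = 1.1e-19) and from 0.594 and 1.27 to 99 and 98.1 in KO (106-fold, 6.72 ± 0.21, adjusted p = 2.1e-23). GDF15 (ENSG00000130513, chr19:18374731-18389176), a secreted stress cytokine, went from 4.84 and 7.92 CPM to 109 and 111 in WT (17.2-fold, 4.11 ± 0.16, adjusted p = 7.7e-21) and from 3.78 and 4.63 to 176 and 173 in KO (41.4-fold, 5.37 ± 0.17, adjusted p = 3.2e-23). Every treated library of both genes lay far above every control library of its line. Over all 20 groups the ratio of highest to lowest group mean was 183 for PURPL, 109 for GDF15, 81.7 for SPATA18, whose lowest mean rests on few counts, 11.1 for TP53I3, 10.3 for PLK3 and 7.28 for CDKN1A, and 1.37 for XPC, the steadiest member. Of the metabolic genes, TIGAR, which lowers glycolytic flux, rose by 1.07 and 1.47, and SESN1, a stress-induced inhibitor of mTORC1 signalling, by 0.81 and 0.90, while TRIAP1, a mitochondrial survival factor, did not pass.

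DAC+BMN was then set against each drug alone on day 5, a comparison that involves no day 0 library. Against DAC alone, 23 of 32 members were higher and 0 lower in WT (all genes 6.77% and 5.52%), and 26 were higher and 0 lower in KO (all genes 10.5% and 11.8%). The member medians were 0.61 and 0.74. CDKN1A stood at 90.9 and 88.5 CPM under DAC against 276 and 309 under DAC+BMN in WT (1.71 ± 0.085, adjusted p = 7.2e-17), and at 138 and 126 against 428 and 462 in KO (1.75 ± 0.085, adjusted p = 6e-17). GDF15 stood at 15.4 and 14.7 CPM against 109 and 111 in WT (2.87 ± 0.14) and at 14.4 and 12.5 against 176 and 173 in KO (3.69 ± 0.15). In neither gene did any library of one treatment reach the level of the other. BAX was 0.39 higher than under DAC in WT (adjusted p = 0.004) and did not pass in KO (0.15, adjusted p = 0.28). Against BMN alone, 19 members were higher and 2 lower in WT (all genes 19.8% and 15.7%), and 22 higher and 2 lower in KO (all genes 22.9% and 17.8%). CYFIP2 and PLK2 were lower in WT, and BAX and PLK2 in KO.

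**Figure D2:**
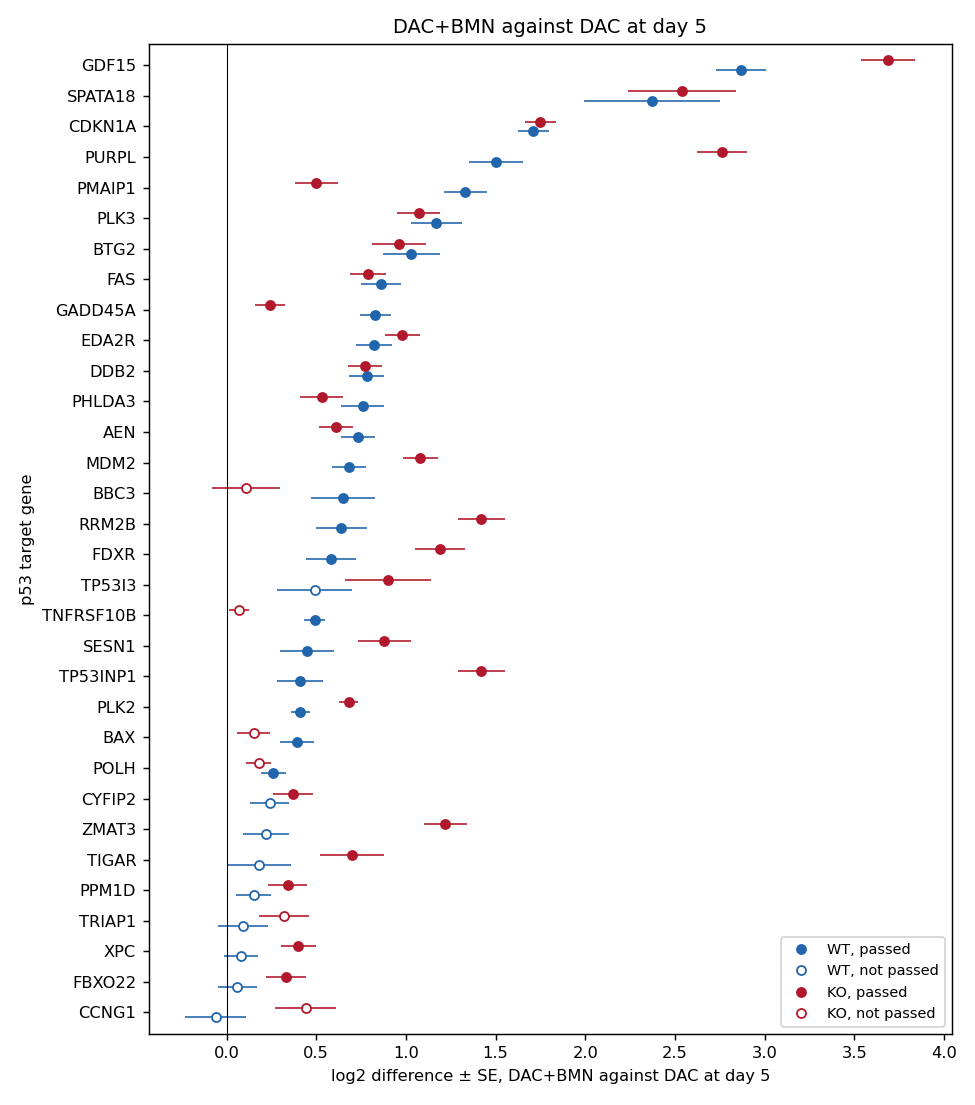
Log2 difference of DAC+BMN against DAC at day 5 for each of the 32 p53 targets, with WT and KO as separate points, bars of 1 SE and filled points for an adjusted p below 0.05. The called points, 23 in WT and 26 in KO, all lie right of 0, with GDF15 farthest at 2.87 in WT and 3.69 in KO.

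The extra step from DAC to DAC+BMN at day 5 differed between the lines for 10 of the 32 members, tested as the KO step minus the WT step; 7 were larger in KO and 3 smaller (all genes 2.17% and 4.68%). The larger steps in KO were those of PURPL (1.26 ± 0.21, adjusted p = 7.7e-05), TP53INP1 (1.01), ZMAT3 (1.00), GDF15 (0.82), RRM2B (0.78), FDXR (0.61) and PLK2 (0.27). ZMAT3, an RNA-binding regulator of splicing, read 38.1 and 40.2 CPM under DAC+BMN in WT and 107 and 104 in KO, from controls of 38.1 and 35.2 and of 50.4 and 58.5. PMAIP1 (-0.83 ± 0.18, adjusted p = 0.0021), GADD45A (-0.58) and TNFRSF10B (-0.42) took smaller steps in KO. The step of CDKN1A differed by 0.04 ± 0.12 between the lines and did not pass (adjusted p = 0.89), which does not show that it was equal.

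A departure from additivity asks whether the DAC+BMN change exceeds the sum of the DAC and BMN log2 changes; it was computed per day after values had been seen, and it uses the day 0 controls. At day 5, 6 members exceeded the sum in WT and 0 fell short (all genes 1.84% and 0.901%), and 15 exceeded it in KO with 0 short (all genes 4.23% and 3.68%). GDF15 exceeded it most, by 2.18 ± 0.23 in WT (adjusted p = 3.3e-08) and 3.06 ± 0.25 in KO (adjusted p = 2e-10), followed in KO by PURPL (1.43) and then CDKN1A (1.23 ± 0.12, with 0.90 ± 0.12 in WT). PMAIP1 exceeded it in WT by 1.23, and FDXR, a mitochondrial ferredoxin reductase, in KO by 1.20. DDB2 exceeded it by 0.51 and 0.97. The mean departure over the 3 days passed for 8 members above and 2 below the sum in WT (all genes 4.51% and 5.38%) and for 16 above and 1 below in KO (10.9% and 7.02%); without WT control replicate 2 the WT total fell from 10 to 5, and without KO control replicate 2 the KO total fell from 17 to 11.

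DAC alone moved a smaller set, in both directions. On most days the count of falls was near the share of all genes given beside it. In WT 13 members were higher and 4 lower than control at day 5 (all genes 15.6% and 12.2%), 14 and 4 at day 16 (18.6% and 14.9%), and 14 and 5 at day 26 (18.7% and 13.2%). In KO the counts were 14 and 7 at day 5 (19.5% and 16%), 12 and 6 at day 16 (19.9% and 17.8%), and 16 and 6 at day 26 (26.3% and 20.9%). On all 3 days and in both lines PMAIP1, FAS, TP53I3, SPATA18, RRM2B, PURPL, TIGAR and GDF15 were higher. PURPL under DAC reached 9.52 and 9.7 CPM in WT and 14.7 and 14.4 in KO at day 5 (4.15 ± 0.27 and 3.96 ± 0.23), and 35.5 and 37.3 in KO at day 26. CDKN1A, by contrast, did not pass at day 5 in either line, and at day 26 it was 0.35 ± 0.085 above control in WT and 0.27 ± 0.084 in KO. BAX, BBC3 and CYFIP2 fell on all 3 days in KO, BBC3 by 0.57, 0.82 and 1.44 in turn. In a fit of only the 2 groups compared, the WT counts dropped from 17 to 9 at day 5 and from 19 to 6 at day 26, and the KO count at day 5 dropped from 21 to 13 without DAC replicate 2.

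Under BMN alone CDKN1A rose at day 5 in both lines and then fell away. In WT at day 5, 3 members rose, CDKN1A, PLK2 and EDA2R, and 0 fell (all genes 0.146% and 0.04%). At day 16 in WT edgeR called 0 members (all genes 0.257% and 0.426%), 11 had an unadjusted p under 0.05, and DESeq2 called 2. In KO at day 5, 16 members rose and 0 fell (5.07% and 6.65%). CDKN1A went to 151 and 145 CPM in WT (0.80 ± 0.085, adjusted p = 1.9e-06) and to 169 and 176 in KO (0.52 ± 0.084, adjusted p = 6.6e-05), above all controls of its line. RRM2B read 37.2 and 35.4 CPM in WT, near its control, and 91.6 and 88.1 in KO (0.88 ± 0.14). The KO response to BMN minus the WT response at day 5 passed in edgeR for 0 members (all genes 0.0666% higher and 0.439% lower), with 5 at an unadjusted p under 0.05, so the unequal counts are not a difference shown between lines. The KO count of 16 fell to 9 and 8 without BMN replicate 1 or 2 and to 6 without KO control replicate 1, and the WT count of 3 became 7 without WT control replicate 2 and 1 without any of the other libraries.

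Later under BMN several targets fell below control. In KO 2 members were higher and 8 lower at day 16 (10.3% and 15.2%), and 7 and 9 at day 26 (15.6% and 17.5%). CDKN1A read 61.4 and 60.9 CPM at day 16 in KO, its lowest group of the 20, against 116 and 124 in the control (-0.97 ± 0.087, adjusted p = 2e-09). GDF15 read 1.59 and 1.59 CPM in the same libraries (-1.40 ± 0.26), and BBC3, PHLDA3, FDXR, BAX and DDB2 were lower at both late days. The KO total at day 16 fell from 10 to 6 without KO control replicate 1 or BMN replicate 2, and that at day 26 from 16 to 9 without BMN replicate 1. At day 26 in WT 6 members were higher and 6 lower (12% and 11%); with RLE size factors, those of DESeq2, the split was 3 higher and 7 lower, a fit of only those groups called 0, and the total of 12 fell to 3 without WT control replicate 2 and to 4 without BMN replicate 1.

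Under DAC+BMN most members were lower at the later days than at day 5. Within DAC+BMN, which again involves no day 0 library, 23 members were lower and 0 higher at day 26 than at day 5 in WT (all genes 17.9% and 18%), and 21 lower and 2 higher in KO (all genes 21.1% and 21.6%). The member medians were -0.70 and -0.55, and those of all genes -0.00 and -0.04. By day 16, 23 members were already lower than at day 5 in WT and 0 higher (15% and 13.1%), and 24 lower and 1 higher in KO (16.7% and 16.8%). CDKN1A went from 276 and 309 CPM at day 5 to 112 and 109 at day 16 and 114 and 132 at day 26 in WT, and from 428 and 462 to 141 and 145 and then 156 and 162 in KO. Its late levels stayed above the day 0 libraries of each line but below every day 5 library. GDF15 kept falling, from 109 and 111 to 42.6 and 39.1 and then 8.5 and 9.55 CPM in WT, and from 176 and 173 to 30.8 and 31.4 and then 6.39 and 5.91 in KO (day 26 against day 5: -3.60 ± 0.15 and -4.82 ± 0.16). PURPL stood in WT at 11.3 and 13.1 and then 13.5 and 15.4 CPM, while in KO it went from 26.2 and 25.3 to 14.4 and 13.8. PMAIP1 in WT stayed high at day 16 (57 and 69.7 CPM) and fell by day 26 (35.3 and 31.2).

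**Figure D3:**
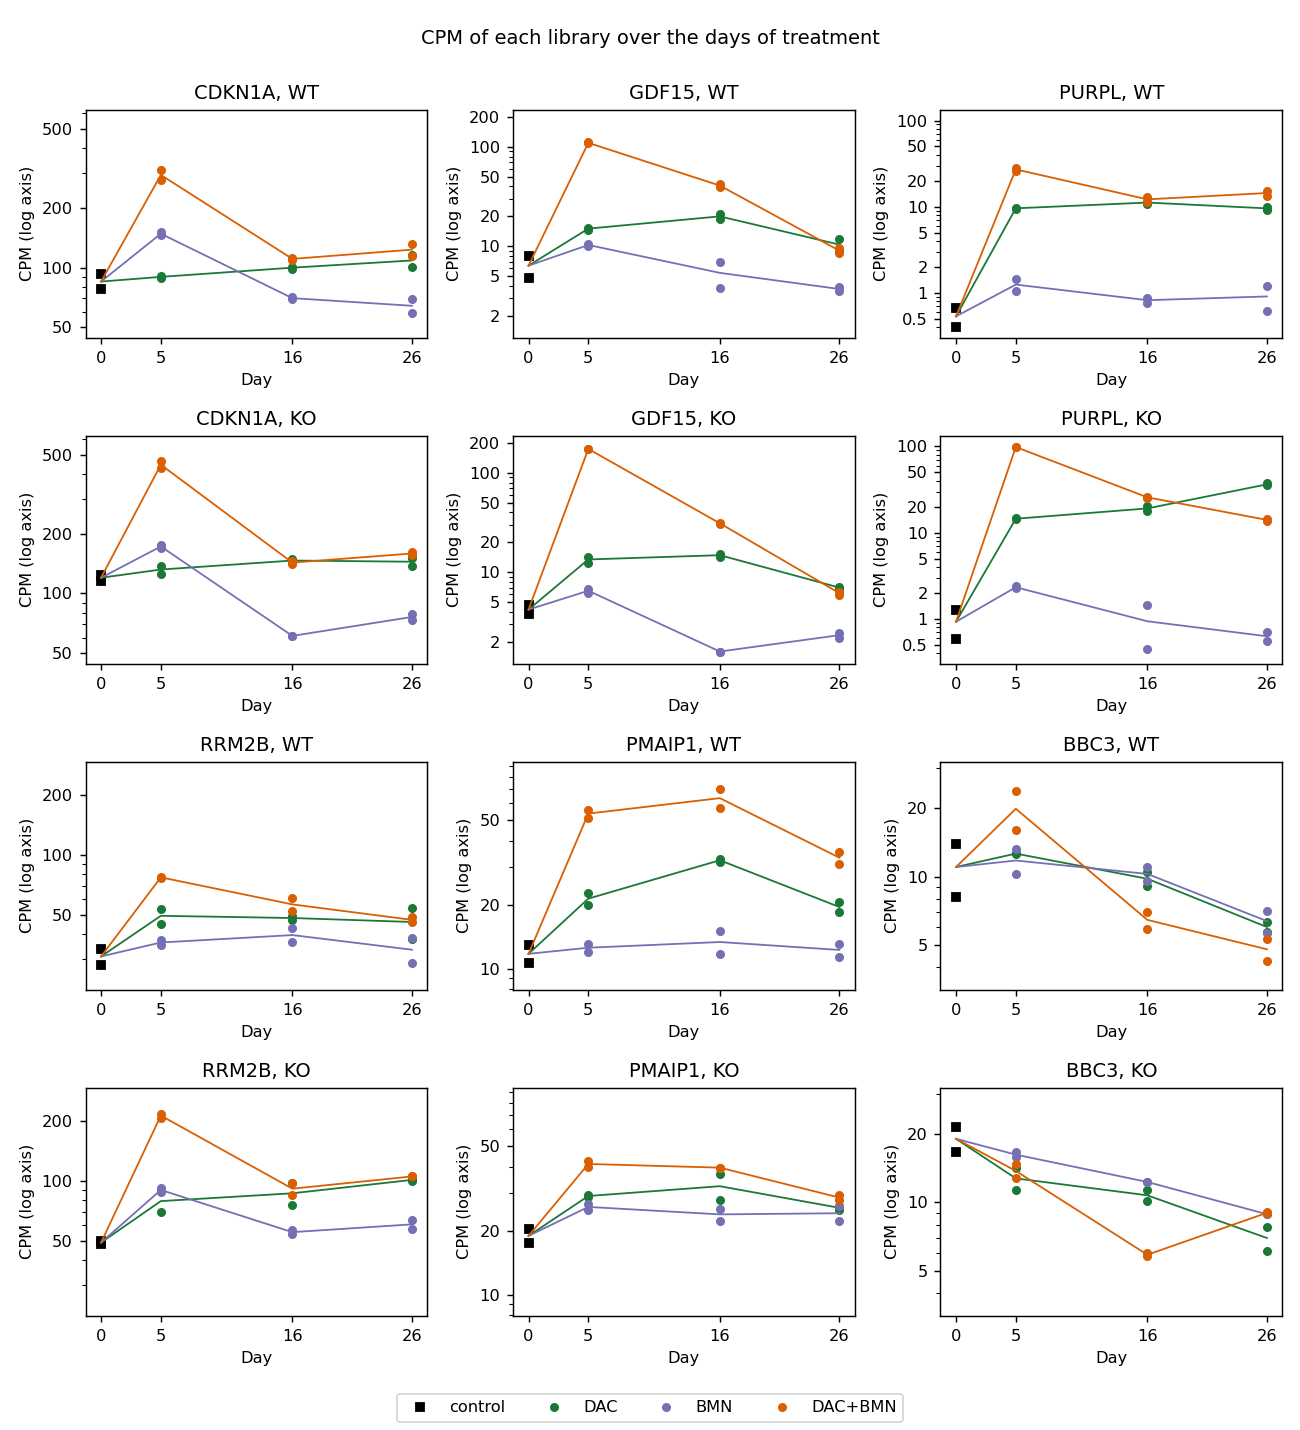
CPM on a log axis over days 0, 5, 16 and 26 for CDKN1A, GDF15, PURPL, RRM2B, PMAIP1 and BBC3, with each library as a point, lines through the group means, colours for treatment and separate panels for WT and KO. CDKN1A and GDF15 under DAC+BMN peak at day 5 in both lines, at 428 and 462 CPM and at 176 and 173 CPM in KO, and lie lower at days 16 and 26.

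The single drugs had other courses. Under BMN, day 26 was lower than day 5 for 11 members in WT and higher for 0 (10.3% and 11.7%), and lower for 15 and higher for 1 in KO (9.38% and 8.95%), with differences of -1.21 ± 0.087 and -1.18 ± 0.086 for CDKN1A. Under DAC the members split, with 4 higher and 5 lower in WT (12.6% and 9.14%) and 11 higher and 7 lower in KO (18.1% and 17.8%). The rises in WT and the falls in KO were near these shares of all genes. Of the 9 WT calls, 3 were kept in every setting run. In KO under DAC, PURPL (1.32 ± 0.14), SESN1 (0.98), SPATA18 (0.84), TIGAR (0.79) and MDM2 (0.62) went up from day 5 to day 26, and PLK3 (-1.17), GDF15 (-0.94) and BBC3 (-0.86) went down. Compared on the same day, DAC+BMN against DAC gave 6 members higher and 4 lower at day 16 in WT (5.04% and 7.21%) and 5 higher and 2 lower in KO (7.58% and 8.7%). At day 26 there were 5 members higher and 7 lower in WT (5.07% and 7.12%) and 7 higher and 3 lower in KO (12.6% and 11.3%). These late totals fell further when 1 library was left out: in WT at day 26 from 12 to 6 without DAC+BMN replicate 2 and to 7 without DAC replicate 1, in KO at day 16 from 7 to 3 without DAC replicate 2 and to 4 without DAC+BMN replicate 2, and in KO at day 26 from 10 to 5 or 6 without DAC replicate 1, DAC replicate 2 or DAC+BMN replicate 2. PURPL at that day was higher than under DAC in WT (0.60) and lower in KO (-1.37), and the KO step minus the WT step was -1.96 ± 0.21 (adjusted p = 1.1e-08).

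By day 26 of DAC+BMN the apoptosis targets had a median near 0 against control, with as many or nearly as many below it as above. At day 5, 4 of 6 arrest genes and 11 of 14 apoptosis genes rose in WT (medians 1.33 and 0.90), and 5 of 6 and 11 of 14 in KO (0.56 and 1.00); 2 of 4 repair genes rose in each line (0.28 and 0.27), as did 3 of 4 feedback genes (0.62 and 0.96) and 3 of 4 metabolic genes (0.94 and 1.19). Of all tested genes, 21.2% rose in WT at day 5 and 27.1% in KO. Over all members, DAC+BMN against control gave 15 higher and 10 lower at day 16 and 14 higher and 6 lower at day 26 in WT (all genes 22.8% and 20.1%, then 22.4% and 18.7%), and 15 and 7, then 18 and 5, in KO (23.1% and 19.5%, then 20.4% and 14.3%). The counts of falls at day 26 in both lines, and at day 16 in KO, were near these shares of all genes. At day 26, 5 apoptosis genes were higher and 5 lower in WT and 6 and 4 in KO (medians -0.10 and 0.01). The metabolic group had 3 and 4 of 4 higher and 0 lower (0.56 and 0.61), the feedback group 2 and 4 of 4 higher and 0 lower (0.24 and 0.60), the arrest group 3 of 6 higher in each line with 1 lower in WT and 0 in KO (0.21 and 0.38), and the repair group 1 of 4 higher in each line with 0 lower in WT and 1 in KO (0.04 in both). Between day 5 and day 26, 13 of 14 apoptosis genes fell in WT and 12 in KO (medians -0.89 and -0.76). Of all tested genes, 17.9% fell between these days in WT and 21.1% in KO. Of the arrest genes 5 of 6 fell in WT and 3 in KO (-0.74 and -0.32), of the repair and the feedback genes 2 of 4 each in both lines, and of the metabolic genes 1 of 4 in WT and 2 in KO. The roles were not tested against each other, and groups of 4 to 6 genes give coarse counts. BBC3 ended below control in both lines, at 4.25 and 5.35 CPM in WT (-1.19 ± 0.21, adjusted p = 1.8e-05) and 9.05 and 8.97 in KO (-1.07 ± 0.19, adjusted p = 3.6e-05). BAX did too, at 43.4 and 44.9 CPM in WT (-0.56 ± 0.095) and 64.1 and 66.2 in KO (-0.36 ± 0.094).

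**Figure D4:**
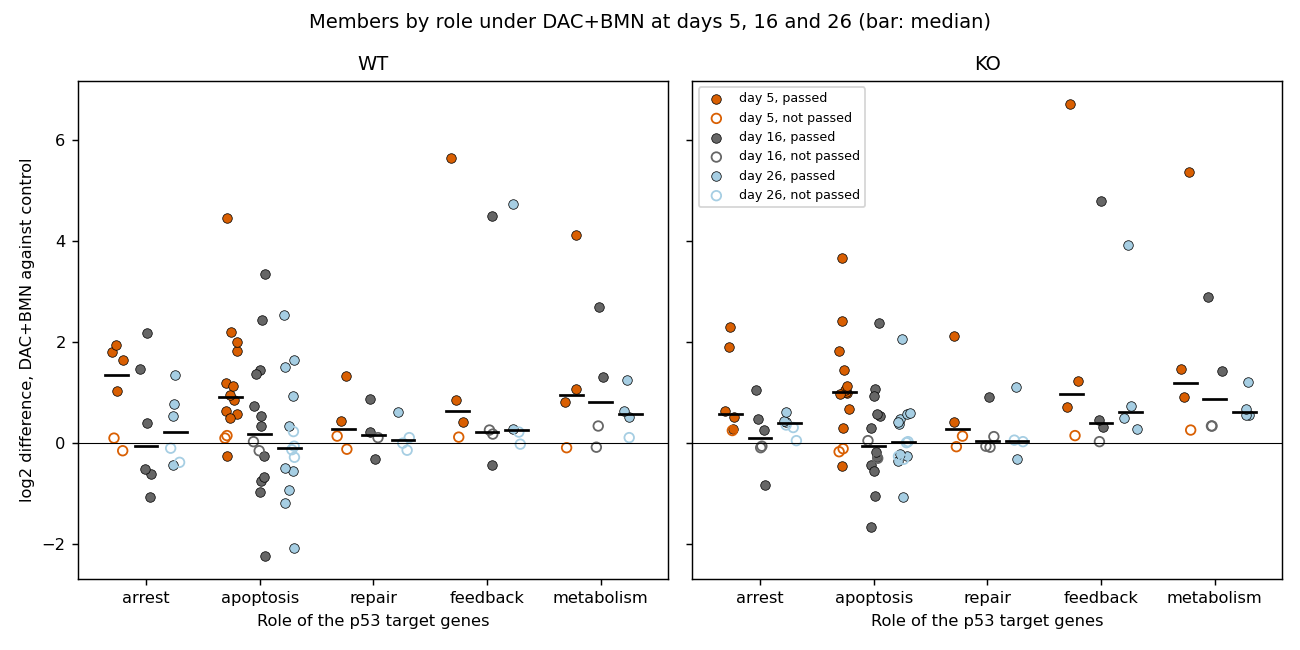
Log2 difference of DAC+BMN from control at days 5, 16 and 26 for the 32 p53 targets split by role, with a point for each gene, a bar for the role's median, and panels for WT and KO. The apoptosis median goes from 0.90 at day 5 to -0.10 at day 26 in WT and from 1.00 to 0.01 in KO, and the metabolism median from 0.94 to 0.56 in WT and from 1.19 to 0.61 in KO.

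The response to DAC+BMN at day 5, KO minus WT relative to each line's own control, passed upward for 4 members and downward for 4 (all genes 7.23% and 9.54%). The downward count was near the share of all genes. TP53INP1, an autophagy and apoptosis regulator, responded more in KO by 1.33 ± 0.19 (adjusted p = 3.6e-06), from 22.7 and 17.5 to 27.4 and 28.5 CPM in WT and from 11 and 11.5 to 35.7 and 43.3 in KO. GDF15 (1.26), ZMAT3 (0.87) and RRM2B (0.80) also responded more in KO. BBC3 (-1.31 ± 0.26, adjusted p = 0.0004), GADD45A (-1.14), PMAIP1 (-1.07) and TNFRSF10B (-0.33) responded less in KO. The control libraries enter this comparison and the untreated one alike, and in the untreated one these 4 stood higher in KO by 0.79, 1.14, 0.69 and 0.60. As given above, the day 5 call of BBC3 against control was lost in each line without 1 library. Differences between lines at a single day were not recomputed in the other settings, so whether that of BBC3 holds there was not tested. Of the 4 that responded more, TP53INP1 (-0.84) and GDF15 (-0.60) stood lower in untreated KO (the GDF15 difference was not called without WT control replicate 2), while ZMAT3 (0.57) and RRM2B (0.66) stood higher. Averaged over the 3 days the KO response minus the WT response passed upward for 6 members and downward for 6 with DAC+BMN (all genes 7.25% and 6.95%), for 0 and 3 with DAC (3.66% and 5.17%), and for 0 and 2 with BMN (0.124% and 1.1%). Leaving out 1 library gave totals of 1 to 8 for DAC and 0 to 12 for BMN, the highest in each case without WT control replicate 2. For DAC the total was 1 without WT control replicate 1, KO control replicate 2 or WT DAC day 26 replicate 2, and for BMN it was 0 or 1 without 14 of the other 15 libraries.

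The genes around the members were read from lists of regulators of p53, effectors of arrest and apoptosis, and further targets. MDM4, which masks the activation domain of p53, fell at day 5 of DAC+BMN from 79.1 and 71.2 to 45.1 and 43.8 CPM in WT and from 63.3 and 62.8 to 39.7 and 41.1 in KO. Over the 17 regulators tested, of 18 listed, 2 rose and 5 fell in WT and 5 rose and 8 fell in KO (all genes 21.2% higher and 18.2% lower in WT, 27.1% and 22.2% in KO), so the rises in KO were near the share of all genes. The kinase HIPK2 fell by 0.89 and 0.91, and ATM (0.84) and ATR (0.78) rose in KO. Mean HIPK2 at day 5 was alike under DAC alone (381 CPM in WT, 464 in KO) and DAC+BMN (380 and 493). In KO, ATM and ATR read 103 and 75.8 CPM under DAC alone and 133 and 99 under DAC+BMN. RCHY1, a ubiquitin ligase that acts on p53, rose by 0.82 and 1.23. CDKN2A, whose ARF product restrains MDM2, had at most 0.154 CPM and was the regulator not tested.

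Of 18 effectors 8 rose and 4 fell in WT, and 6 rose and 6 fell in KO; against the shares of all genes just given, the falls in WT and the rises in KO were close to background. BCL2, the anti-apoptotic founder of its family, had the largest falls among them (-2.48 ± 0.17 and -3.24 ± 0.2), and CDK4, a G1 kinase, fell by 0.51 and 1.18. Mean BCL2 was also low under DAC alone at day 5, at 7.69 CPM in WT and 3.51 in KO. It was 5.29 and 2.81 under DAC+BMN and 29.7 and 26.6 in the controls. BAK1, a pore-forming relative of BAX, rose by 1.01 and 0.62, and BID, which links death receptors to mitochondria, by 0.92 and 0.22. BCL2L11 (BIM) fell by 0.29 and 0.85. Of 27 further p53 targets 16 rose and 3 fell in WT and 15 rose and 2 fell in KO, beside the same all-gene shares of 21.2% higher and 18.2% lower in WT and 27.1% and 22.2% in KO. ATF3, a stress transcription factor, rose by 2.28 and 1.39, TRIM22, also an interferon-stimulated gene, by 2.09 and 1.23, and SERTAD1, a transcriptional coregulator of the E2F family, by 2.08 and 1.56. FUCA1, a lysosomal fucosidase, rose by 1.08 and 1.47, DGKA, a diacylglycerol kinase, rose in KO by 3.57, and PANK1, a coenzyme A synthesis kinase, fell by 0.49 and 0.65. Their medians, 0.29 and 0.45, lay below those of the 32 members.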

How the data were processed

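Per the labels' protocols, libraries of total RNA came from the KAPA RNA HyperPrep kit. The deposited table holds raw counts of fragments per gene, which the authors made with featureCounts 1.5.0-p1 and the Ensembl 104 annotation of GRCh38, per the file headers (strand setting 1, mapping quality of at least 20, primary alignments, marked duplicates ignored). The submitters' processing notes also name FastQC, Trimmomatic and Partek, and STAR is read only from alignment file names. The header names 76 alignments, of which 40 are columns of the table and were used. All 37 mitochondrial genes have 0 counts.

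Low genes were removed with filterByExpr given the 20 groups (at a minimum count of 10 and a total of at least 15). Counts were scaled by TMM and fitted together in edgeR's quasi-likelihood model (edgeR 4.0.16, limma 3.58.1, R 4.3.3) with a mean per group. The fit had 20 residual degrees of freedom, so the 2 libraries of a group borrow their spread from all 40. The biological coefficient of variation was 0.07178. Groups were not equally noisy. Chi-square per degree of freedom between replicates was 19.64 in the WT control, 17.09 in WT DAC at day 26 and 1.655 in WT BMN at day 5. A shared spread may be too small for the noisiest groups, and its part in their calls was not tested. P-values are two-sided and adjusted by Benjamini-Hochberg within each contrast over the 22527 genes, with a threshold of 0.05. Of 76 contrasts, 18 were added after values had been seen: the departures from additivity and the differences between lines at single days. Recovery of known fold changes by this model was checked on simulated counts for DAC against control in WT at day 5. It recovered 43 of 67 changes of 1.5-fold, 61 of 67 of 2-fold and 65 of 66 of 4-fold, with 12 false calls among 20627 genes. Every simulated gene had the same dispersion, so the check does not cover genes or libraries that vary more.

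The members, roles and other lists were chosen with earlier results of these data known, so counts over them are descriptions and no list was tested. Per-library values are given for 7 fixed members, for MDM4 and SETD2, and for the largest rises and falls of a comparison, with others chosen after their values were seen. A regulator on the list is not reported here. Alternatives were RLE size factors, no filter on low counts, DESeq2 1.42.0, a fit of only the groups compared, a replicate block and leaving out each library in turn. The alternatives were run for 46 contrasts, which leave out the 18 added after values had been seen and the steps to and from day 16. Promoter windows came from RefSeq tables of GRCh38.p14. Strand-specific counting was used per the file headers, yet reads shared by near-identical or overlapping genes cannot be resolved from counts.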

Additional observations from a re-analysis of the deposited data

Results flagged for a closer look

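For 17 results the response to a treatment, averaged over the 3 days and each taken against its own line's control, differed between the lines by the edgeR test of that difference itself, KO minus WT on the log2 scale; the same 4 control libraries enter all of them. With DAC+BMN the response was smaller in KO for PMAIP1 (-1.12, adjusted p = 2.9e-06), GADD45A (-1.01, adjusted p = 3.4e-09), BBC3 (-0.71), PHLDA3 (-0.65), FAS (-0.54) and TNFRSF10B (-0.34). It was larger in KO for CYFIP2 (1.05, adjusted p = 1.3e-07), TP53INP1 (0.92), ZMAT3 (0.74), PLK2 (0.62, adjusted p = 1.9e-09), EDA2R (0.39) and MDM2 (0.37). With DAC it was smaller in KO for GADD45A (-0.60), PHLDA3 (-0.47) and TNFRSF10B (-0.20). With BMN it was smaller in KO for DDB2 (-0.44, adjusted p = 0.038) and CDKN1A (-0.41, adjusted p = 0.029). Of these, GADD45A with DAC and 9 of the 12 with DAC+BMN kept their call in all 21 settings. The others did not: with DAC+BMN, BBC3 was kept in 16, MDM2 in 17 and EDA2R in 10, with DAC, PHLDA3 in 17 and TNFRSF10B in 7, and with BMN, CDKN1A in 7 and DDB2 in 7.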

How the results depend on the processing

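Of 784 calls of members in 46 contrasts, 762 were kept with RLE size factors, 707 without a filter, 766 with DESeq2 and 782 with the replicate block, and 686 of 783 in fits of only the groups compared. Leaving out 1 library kept 3832 of 4500. Of the calls of DAC+BMN against control at day 5, 19 of 24 in WT and 24 of 25 in KO were kept in every setting run, as were 17 of 23 and 18 of 26 against DAC at day 5, and 22 and 20 of 23 at day 26 against day 5. The cause of the changes below was not tested. In fits of only the groups compared, the count of members called became 9 for DAC at day 5 and 6 at day 26 in WT, 0 for BMN at day 5 and 0 at day 26 in WT, 3 and 12 for DAC+BMN against DAC and against BMN at day 26 in WT, 3 for DAC at day 26 against day 5 in WT, and 1 (DAC) and 0 (BMN) for the response between lines. DESeq2 called 5 for BMN at day 5 and 2 at day 16 in WT, no filter gave 4 at day 16 and 7 at day 26, and RLE gave 0 for the BMN response between lines.

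With 1 library left out, counts ran from 1 to 7, 0 to 6 and 3 to 12 for BMN at days 5, 16 and 26 in WT, and from 6 to 11, 6 to 9 and 9 to 15 in KO. They ran from 13 to 18 for DAC at day 5 in KO, 6 to 11 for DAC+BMN against DAC at day 26 in WT, 3 to 5 and 5 to 7 at days 16 and 26 in KO, 9 to 13 against BMN at day 26 in KO, 1 to 8 and 0 to 12 for the DAC and BMN responses between lines, and 5 to 13 and 11 to 18 for the departures in WT and KO. AEN under BMN at day 26 in WT went from 0.27 to values of -0.02 to 0.46.

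No general pairing by replicate number was seen. Over 190 pairs of groups the correlation of same-numbered deviations had a median of -0.000403, exceeded 0.1 in 10 and reached 0.237 at most. A median over all pairs cannot show whether some of the groups are paired. The replicate block lost 2 of 784 calls and added 2. In the WT control SPATA18 had 1 and 4 counts, so its log2 values rest on very few fragments.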
